A study of Auxenochlorella pyrenoidosa with 12 samples.

Results

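The lowest dose of the series, 0.1 EC50, was set against the unexposed control in cultures of Auxenochlorella pyrenoidosa, a unicellular freshwater green alga that is also called Chlorella pyrenoidosa. The exposed cultures received potassium peroxymonosulfate at 1.70 mg/L, which is 0.1 of the concentration with a median effect (EC50), and the control cultures received 0 mg/L. The series followed the alga over 12 days of exposure, and its title asks about short-lived toxicity of an oxidant that degrades fast. The labels do not state on which day RNA was taken. RNA came from whole cells, with 3 libraries at 0.1 EC50 and 3 control libraries, and the series also holds 3 libraries each at 0.2 EC50 (3.40 mg/L) and 0.5 EC50 (8.49 mg/L). Whether the libraries within a dose represent separate cultures is not stated, so p-values measure the spread between these libraries, which may be technical. In bulk RNA, fewer cells of a kind and less RNA per cell cannot be told apart.

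The members are contigs, transcript sequences assembled from the reads without a genome, whose FPKM averaged 1 or more across the 6 libraries of 0.1 EC50 and control. FPKM counts fragments scaled by contig length and by the size of the library. Of 29140 contigs in the table, 16341 met this limit. The lowest mean inside the limit was 1.00002 FPKM and the highest mean outside it was 0.999945 FPKM, and 911 members had a mean under 1.1 FPKM. The table pairs no contig with a gene name or a sequence, so no contig is assigned a function, and identifiers are printed for 4 contigs only. Other contigs are given by the rank of their mean level.

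Peroxymonosulfate is a peroxygen salt used to disinfect and oxidise water. In water it can give rise to sulfate and hydroxyl radicals when activated by metals, light or heat, and it decays while it reacts. Green algae meet oxidants with scavenging enzymes and the ascorbate-glutathione cycle, and the chloroplast is both a source and a target of reactive oxygen in these cells.

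Summed FPKM lay between 514249 and 552958 in the 0.1 EC50 libraries and between 507380 and 532816 in the control libraries, and the number of fragments behind these sums is unknown. The 3 exposed libraries resembled each other more closely than the 3 controls did. Pairwise correlations of log2(FPKM + 1) across members were 0.946 to 0.951 within 0.1 EC50 and 0.875 to 0.938 within the control. Between 0.1 EC50 and control libraries they were 0.873 to 0.941, which covers the range within the control, and contigs are not independent replicates. Over all members, control replicates 1 and 3 had a higher mean correlation with the exposed libraries (0.930 and 0.933) than with the other controls (0.927 and 0.907). Control replicate 2 stood apart by the contigs seen mainly in it. It held 295 members whose log2(FPKM + 1) was at least 2 higher than in every other library of the series, and these made up 2.44% of its summed FPKM. The next highest number of such contigs was 47, in 0.1 EC50 replicate 2, and each of the other 4 libraries held between 1 and 3. The highest of the 295 contigs had 4131 FPKM in control replicate 2, against 4.10 FPKM in control replicate 3, 0 FPKM in control replicate 1, and 0, 2.80 and 0.256 FPKM at 0.1 EC50. None of the contigs that stood out in 1 library was called between the groups, which their large spread within a group favours. Leaving these contigs out brought the mean correlation of control replicate 2 with its own group to 0.938, against 0.895 with them. The way these contigs were chosen favours such a rise. Control replicates 1 and 3 then had 0.947 and 0.928 with their own group, so replicate 3 was the lowest of the controls. By the last number of the name, which is taken up below, 294 of the 295 contigs ended in 3 and 46 of the 47 ended in 1. What these contigs are was not tested.

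Low values also differed in their pattern. Over contigs between 0.01 and 1 FPKM in both libraries, the log2 ratio of each library to control replicate 1 was taken, and the densest window of 0.02 to either side held 6.11% to 12.8% of the contigs in 7 libraries. It held 2.81% to 4.42% in 0.1 EC50 replicates 2 and 3, control replicate 2 and 0.2 EC50 replicate 2. Those 4 were set apart with earlier results of these data known, and results are also given without them.

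The main comparison found more contigs lower than higher at 0.1 EC50. Of the 16341 members, 1691 differed from the control in limma's moderated test at an adjusted p under 0.05, which is 10.3% of those tested. Among these, 470 contigs were higher (2.88%) and 1221 were lower (7.47%). Most differences were below 2-fold, since 63 contigs (0.386%) rose and 339 (2.07%) fell by 2-fold or more. At an unadjusted p under 0.05 there were 3973 contigs. A change of at least 4-fold was found for 3 higher and 30 lower contigs. The median log2 difference was 0.61 among the contigs called higher and -0.76 among those called lower. Differences are on the log2(FPKM + 1) scale, which understates changes of contigs near 1 FPKM.

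**Figure D1:**
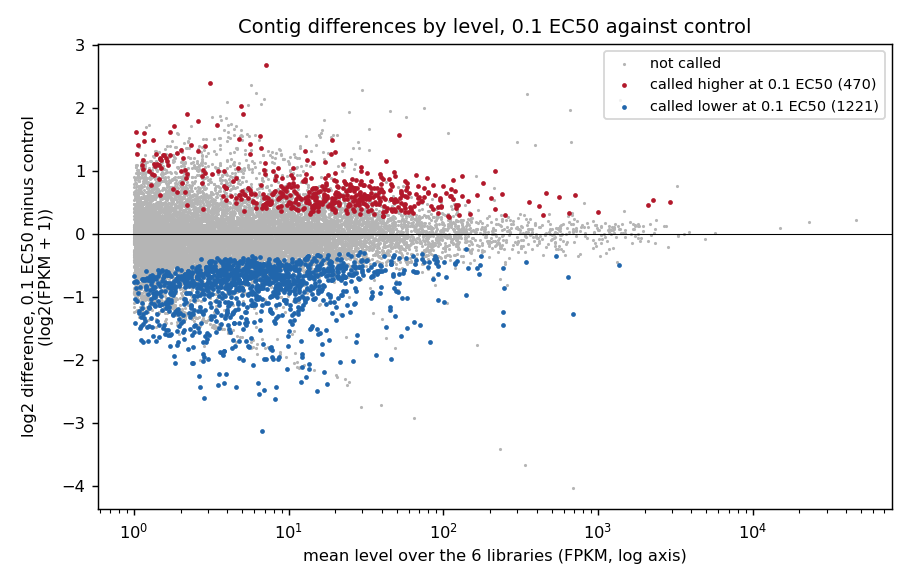
Each point is 1 of the 16341 members, with its mean level over the 6 libraries in FPKM on a log axis and its log2 difference (0.1 EC50 minus control) on the vertical axis. The 470 contigs called higher (red) lie mostly above 5 FPKM, the 1221 called lower (blue) crowd below 20 FPKM, and several contigs with large differences at high level are grey (not called).

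The values of the 3 and 3 libraries did not overlap for 28.9% of all members, 8.81% higher and 20.1% lower at 0.1 EC50. Among called contigs the groups were separate for 469 of 470 higher and for 1221 of 1221 lower contigs, which the call itself favours. The contigs called higher made up 6.01%, 5.46% and 5.61% of summed FPKM in 0.1 EC50 replicates 1, 2 and 3, against 4.18%, 3.83% and 3.76% in control replicates 1, 2 and 3. The contigs called lower made up 2.69%, 2.31% and 2.66% at 0.1 EC50, against 4.60%, 4.25% and 4.69% in the control. Both sets were chosen by this contrast, so these shares describe their size and are not a test.

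The balance of higher and lower calls depended on scaling. After median-of-ratios scaling, which sets the typical contig equal between libraries, 723 contigs were higher and 854 lower, and the share of higher calls was 45.8% in place of 27.8%. Quantile normalization gave 631 higher and 853 lower. An equal summed FPKM in every library gave 377 higher and 1147 lower. The median log2 difference of all members was -0.096 as deposited. It was 0.028 after median-of-ratios scaling and 0.015 after quantile normalization, and directions near 0 are relative to that shift. Under all 3 scalings together, 346 higher and 718 lower calls remained. Under those scalings and with each of the 6 libraries left out in turn, 157 higher and 517 lower calls remained.

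Calls depended on the libraries as well. The total was 846 without 0.1 EC50 replicate 2, 886 without control replicate 3 and 1086 without control replicate 1, against 1398 without control replicate 2. The number called higher was 276 without 0.1 EC50 replicate 1. Leaving out the 4 libraries set apart by their low values gave 179 (73 higher and 106 lower), in a fit that left 1 library at 0.1 EC50 and assumed that it varied like the other groups. With this split as a batch term, in which control replicate 2 formed a set of its own and so no longer bore on the contrast, the total was 635, of which 200 were higher and 435 lower. A fit of the 6 libraries alone called 197 higher and 570 lower.

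The 2 contigs with the largest rise under the naming rule were moderately expressed and separated the groups fully. The rule itself asks for no overlap and for 20 FPKM or more in the higher group, so neither is a result. TRINITY_DN2888_c0_g1_i2_3 had 65.9, 88.8 and 78.4 FPKM at 0.1 EC50, against 30.2, 25.2 and 21.6 FPKM in the control. All 3 exposed values were far above the highest control value. Its log2 difference was 1.57 ± 0.18 (SE, adjusted p = 0.000712 in limma's test). Without the 4 libraries set apart by their low values the difference was 1.34 and the call ended (adjusted p = 0.0568 in limma's test). TRINITY_DN14874_c0_g1_i1_4 had 44.3, 22.5 and 19.7 FPKM at 0.1 EC50, against 11.5, 8.07 and 7.91 FPKM in the control. Its lowest exposed value lay above its highest control value, as the rule requires, and replicate 1 was the highest of the exposed libraries. The log2 difference was 1.48 ± 0.25 (SE, adjusted p = 0.00502 in limma's test), and it missed the threshold in the fit of 6 libraries (adjusted p = 0.0532).

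The 2 contigs with the largest fall under the naming rule were close to 4 or 5 FPKM on exposure and above 20 FPKM in every control library. The rule asks for 20 FPKM in the higher group and for no overlap. It also asks for the call under median-of-ratios scaling and quantile normalization. TRINITY_DN933_c0_g1_i1_1 had 3.96, 2.88 and 4.52 FPKM at 0.1 EC50, against 21.5, 21.4 and 36.9 FPKM in the control. The control values were spread by replicate 3, and none came near the exposed ones. The log2 difference was -2.50 ± 0.24 (SE, adjusted p = 0.000328 in limma's test). Without the 4 libraries set apart by their low values it was -2.56 and the call ended (adjusted p = 0.0525). TRINITY_DN2075_c0_g1_i8_3 had 4.65, 4.96 and 5.37 FPKM at 0.1 EC50, against 26.7, 32.6 and 32.3 FPKM in the control. Its exposed libraries agreed closely, with a mean of 4.99 ± 0.358 FPKM (SD, n = 3). The log2 difference was -2.39 ± 0.15 (SE, adjusted p = 0.000184 in limma's test), and the call held in all 21 alternatives run on it, with adjusted p up to 0.0437.

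These 4 contigs took several courses over the doses. The comparisons with control share their control libraries, so the values are given side by side. The contigs were chosen for their difference at 0.1 EC50, which favours an extreme mean there. Comparisons of the higher doses with 0.1 EC50 reuse the values that chose the contigs, so they are not a test of dose. TRINITY_DN2888_c0_g1_i2_3 had a mean of 25.6 ± 4.33 FPKM in the control, 77.7 ± 11.5 FPKM at 0.1 EC50, 56.4 ± 13.1 FPKM at 0.2 EC50 and 45.1 ± 4.58 FPKM at 0.5 EC50 (SD, n = 3 each). It was lower at 0.5 than at 0.1 EC50 by a log2 difference of -0.76 ± 0.18 (SE, adjusted p = 0.0167 in limma's test). TRINITY_DN933_c0_g1_i1_1 averaged 26.6 ± 8.94 FPKM in the control, 3.79 ± 0.836 at 0.1 EC50, 6.06 ± 1.45 at 0.2 EC50 and 17.5 ± 3.17 at 0.5 EC50. It was higher at 0.5 than at 0.1 EC50 by a log2 difference of 1.96 ± 0.24 (SE, adjusted p = 0.000879 in limma's test), and at 0.5 EC50 it did not pass the threshold against the control (log2 difference -0.54, adjusted p = 0.176). For both contigs the mean at the lowest dose was the farthest from the control, which their choice at 0.1 EC50 favours. The step between 0.1 and 0.2 EC50 was not called (adjusted p = 0.298 and 0.346 in limma's test). TRINITY_DN14874_c0_g1_i1_4 averaged 9.15 ± 2.01 FPKM in the control, 28.9 ± 13.5 at 0.1 EC50, 25.9 ± 1.66 at 0.2 EC50 and 34.3 ± 2.99 at 0.5 EC50, and limma called neither higher dose against the lowest (log2 differences -0.06 and 0.33, adjusted p = 0.948 and 0.394). TRINITY_DN2075_c0_g1_i8_3 stayed low throughout, at 2.78 ± 0.719 FPKM at 0.2 EC50 and 6.41 ± 0.763 at 0.5 EC50. The log2 differences from the lowest dose were -0.68 and 0.30, and limma called neither (adjusted p = 0.148 and 0.195).

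**Figure D2:**
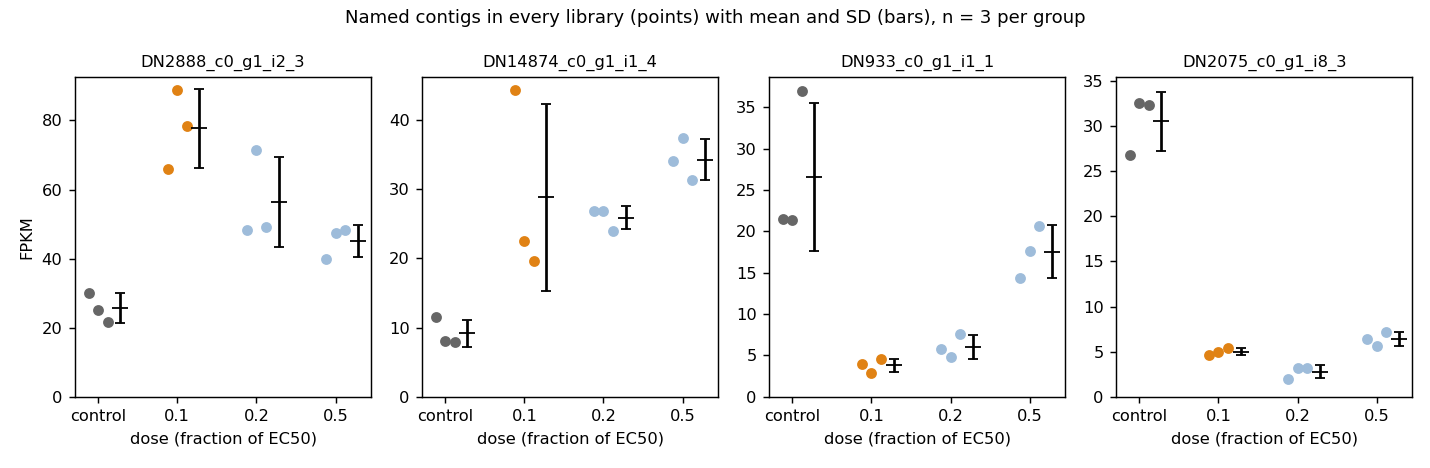
Level in FPKM of the 4 named contigs in each library (points), by dose from control to 0.5 EC50, with the mean and SD of 3 libraries as black bars. DN2888 peaks and DN933 is lowest at 0.1 EC50, DN14874 is raised and DN2075 is lowered at all 3 doses. The contigs were chosen for their difference at 0.1 EC50.

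Across all called contigs the medians at the other doses were as follows. Contigs called higher at 0.1 EC50 had a median log2 difference from control of 0.61 at 0.1 EC50, 0.65 at 0.2 EC50 and 0.42 at 0.5 EC50. Contigs called lower at 0.1 EC50 had a median of -0.76 at 0.1 EC50, -0.55 at 0.2 EC50 and -0.16 at 0.5 EC50. The sets were chosen at 0.1 EC50 and all 3 comparisons use the same control libraries, so the order of these medians is not a test of dose.

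Lower calls were in excess among contigs of low level, and the order at high level depended on scaling. Below 5 FPKM, 75 of 9225 contigs were higher and 547 lower, and between 5 and 20 FPKM, 177 of 4612 were higher and 506 lower. Below 5 FPKM, names ending in 3 gave 10 higher and 308 lower calls among 3537 contigs (0.283% and 8.71%). Names ending in 1 gave 8 and 109 there among 2026 contigs (0.395% and 5.38%). Names ending in 4 gave 25 and 96 among 2116 (1.18% and 4.54%). Names ending in 2 were near balance, with 32 higher and 34 lower among 1546 (2.07% and 2.20%). Between 5 and 20 FPKM the counts were 22 and 179 among 1121 for names ending in 3 (1.96% and 16.0%). For 1 they were 43 and 125 among 1115 (3.86% and 11.2%). They were 79 and 141 among 1535 for 4 (5.15% and 9.19%), and 33 and 61 among 841 for 2 (3.92% and 7.25%). The parts of level and name in this excess were not tested. Between 20 and 100 FPKM higher calls were more frequent, with 183 of 1903 contigs higher and 146 lower. From 100 to 1000 FPKM, 31 of 517 contigs were higher and 21 lower, and at 1000 FPKM or more, 4 of 84 were higher and 1 was lower. At 100 FPKM or more the order turned under some of the alternatives. From 100 to 1000 FPKM there were 41 higher and 9 lower calls under median-of-ratios scaling, against 29 higher and 33 lower under quantile normalization and 25 higher and 33 lower with an equal total. At 1000 FPKM or more these scalings gave 5 higher and 0 lower, 3 higher and 6 lower, and 4 higher and 5 lower. With the split by low values as a batch term, 11 contigs were higher and 13 lower from 100 to 1000 FPKM, and without the 4 libraries 1 was higher and 3 were lower. For contigs at 20 FPKM or more the totals were 218 higher and 168 lower in the deposited values, 291 and 82 under median-of-ratios scaling, 207 and 178 after quantile normalization, and 176 and 174 with an equal total. Below 20 FPKM lower calls outnumbered higher calls under each of these scalings, with 1053 lower and 252 higher in the deposited values and 772 lower and 432 higher under median-of-ratios scaling. Precision rose with level, since the median SE of a log2 difference was 0.28 below 5 FPKM and 0.12 at 1000 FPKM or more.

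**Figure D3:**
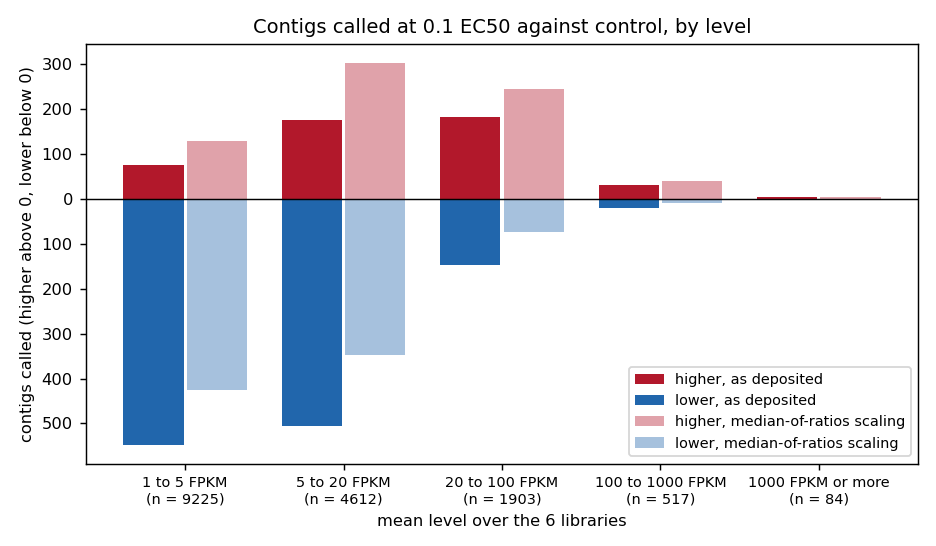
Number of contigs called higher (red, above 0) and lower (blue, below 0) at 0.1 EC50 against control in 5 classes of mean level, in the deposited values (full colour) and under median-of-ratios scaling (pale). Lower calls prevail below 20 FPKM and higher calls from 20 FPKM upward in these 2 versions, whereas quantile normalization and an equal total gave more lower than higher calls from 100 FPKM upward.

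Most of the transcript mass did not pass the test. Of the 10 most abundant contigs, which held 22.0% to 22.8% of summed FPKM at 0.1 EC50 and 19.0% to 21.6% in the control, 0 were called in limma's test, with adjusted p from 0.218 to 0.996, and 0 had an unadjusted p under 0.05. The share averaged 22.3 ± 0.422% at 0.1 EC50 and 20.4 ± 1.32% in the control (SD, n = 3), with p = 0.1 in a two-sided exact permutation test, the smallest that 3 against 3 libraries allow. The most abundant contig had 46544, 54770 and 49019 FPKM at 0.1 EC50, against 44817, 40650 and 44436 FPKM in the control. Its groups did not overlap, yet the log2 difference of 0.21 ± 0.11 was not called (adjusted p = 0.282 in limma's test). Contigs that reached 1 FPKM numbered 14989, 15349 and 16866 at 0.1 EC50, against 16118, 16569 and 18261 in the control, and these groups overlapped (p = 0.3, exact permutation test, two-sided).

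The 5 contigs called at 1000 FPKM or more had differences below 1.5-fold. Rank 11 rose, with 3381, 3370 and 3505 FPKM at 0.1 EC50 against 2589, 2302 and 2357 FPKM in the control (log2 difference 0.50 ± 0.07, SE; adjusted p = 0.00223 in limma's test). At rank 19 a contig had 2724, 2727 and 2640 FPKM at 0.1 EC50 against 1949, 1857 and 1768 FPKM in the control, a log2 difference of 0.54. The one at rank 23 had 2401, 2448 and 2417 FPKM at 0.1 EC50 against 1882, 1723 and 1686 FPKM in the control, a log2 difference of 0.46. In each of these 3 contigs every exposed value was above every control value. Rank 52 fell, with 1174, 1180 and 1044 FPKM at 0.1 EC50 against 1605, 1673 and 1508 FPKM in the control (log2 difference -0.49, adjusted p = 0.00657 in limma's test). That call ended after median-of-ratios scaling (log2 difference -0.34, adjusted p = 0.179). The remaining called contig of this class, of rank 84, had a log2 difference of 0.34, and its call ended under quantile normalization (adjusted p = 0.117 in limma's test). Ranks 19 and 23 kept the call under all 3 scalings and with each of the 6 libraries left out, and ranks 11, 52 and 84 lost it under at least 1 of these. All 5 calls ended in limma's fit without the 4 libraries set apart by their low values, and likewise with that split as a batch term.

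**Figure D4:**
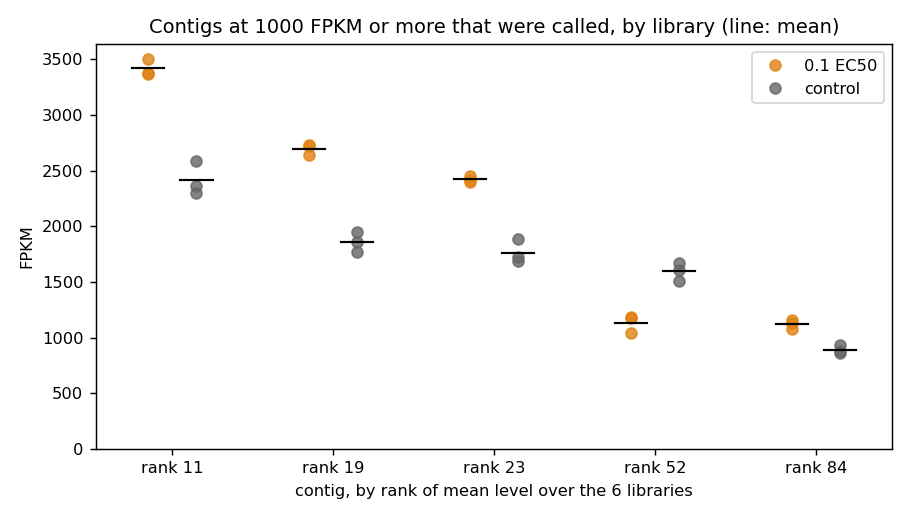
FPKM in each library of the 5 called contigs that averaged 1000 FPKM or more, at 0.1 EC50 (orange, left of each pair) and in the control (grey, right), with group means as lines. At ranks 11, 19, 23 and 84 the exposed libraries lie above the control, and at rank 52 they lie below it.

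Among called contigs between 100 and 1000 FPKM the largest changes were falls. The contig of rank 288 had 153, 105 and 131 FPKM at 0.1 EC50, against 373, 319 and 369 FPKM in the control (log2 difference -1.45 ± 0.14, SE; adjusted p = 0.000346 in limma's test). A second, at rank 118, had 449, 400 and 357 FPKM at 0.1 EC50, against 955, 1040 and 921 FPKM in the control (log2 difference -1.28). It averaged 407 FPKM at 0.2 EC50 and 1007 FPKM at 0.5 EC50, against a control mean of 972 FPKM. The largest rise among the called contigs of this range was at rank 319, with 299, 291 and 273 FPKM at 0.1 EC50 against 131, 168 and 136 FPKM in the control (log2 difference 0.99 ± 0.10, SE; adjusted p = 0.000389 in limma's test).

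Several large mean differences did not exceed the spread between libraries. At a mean of at least 20 FPKM, 78 contigs differed by at least 2-fold, and 43 of them were not called, 23 higher and 20 lower. Of these 43, the groups overlapped in all but 2, and 12 were contigs that stood out in 1 library. The median SD of log2(FPKM + 1) among the 43 was 0.83 at 0.1 EC50 and 2.34 in the control, against 0.23 at 0.1 EC50 and 0.17 in the control for the 35 that were called. A call at this size depends on the spread, so the split itself favours this contrast and the overlap. One at rank 790 had 105, 123 and 40.7 FPKM at 0.1 EC50 against 15.6, 2.20 and 160 FPKM in the control. Control replicate 3 was above all exposed libraries while control replicates 1 and 2 were below them. The contig of rank 49 had 2536, 1723 and 263 FPKM at 0.1 EC50 against 15.2, 3562 and 242 FPKM in the control, and its log2 difference of 2.12 ± 1.66 (SE) was not called (adjusted p = 0.474 in limma's test).

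Few contigs were listed at 0 throughout one group and well above 0 throughout the other, and their number depended on the limit. Among all contigs of the table, 3 were listed at 0 in every control and at 1 FPKM or more in every 0.1 EC50 library, and 6 showed the reverse. With a limit of 0.5 FPKM the numbers were 14 and 36, and with a limit of 2 FPKM they were 0 and 1. The clearest of the first kind had 1.98, 2.12 and 2.08 FPKM at 0.1 EC50 and was listed at 0 in all 3 controls (adjusted p = 0.00488 in limma's test). One of the second kind was listed at 0 in all 3 exposed libraries and had 2.53, 1.88 and 2.29 FPKM in the control (adjusted p = 0.00285 in limma's test), and it was listed at 0 at 0.2 and 0.5 EC50 too. All 6 contigs of the second kind had names ending in 3. These contigs were chosen after their values were seen.

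The last number of the contig name, from 1 to 4, went with both the calls and the libraries. The labels and the table do not say what it means. Names ending in 3 gave 75 higher and 528 lower calls among 5208 contigs, whereas names ending in 2 gave 119 higher and 123 lower among 2894. At 2-fold or more the counts were 6 higher and 198 lower for names ending in 3, and 25 higher and 14 lower for names ending in 2. Names ending in 1 gave 89 higher and 272 lower calls among 3736 contigs, and names ending in 4 gave 187 higher and 298 lower among 4503.

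Each library also had 1 number whose contigs were seldom listed at 0, once the average of the library and of the number were taken out. These numbers split the 12 libraries into 4 sets of 3. For number 3 the set was control replicates 2 and 3 and 0.5 EC50 replicate 2. For number 2 it was 0.1 EC50 replicates 1 and 3 and 0.2 EC50 replicate 3. For number 1 it was 0.1 EC50 replicate 2, control replicate 1 and 0.5 EC50 replicate 1, and for number 4 it was 0.2 EC50 replicates 1 and 2 and 0.5 EC50 replicate 3. Number 3 was thus tied to 2 control libraries and 0 exposed ones, number 2 to 2 exposed and 0 control libraries, number 1 to 1 of each and number 4 to none of the 6. Contigs ending in 3 were listed at 0 in 19.1%, 18.4% and 16.8% of cases in 0.1 EC50 replicates 1, 2 and 3, against 17.8%, 8.18% and 8.69% in control replicates 1, 2 and 3. For contigs ending in 2 the shares were 3.97%, 10.0% and 2.30% at 0.1 EC50, against 8.88%, 9.13% and 6.48% in the control. The part of this pattern in the calls was not tested. Fitted alone, contigs ending in 1 or 4 gave 292 higher and 607 lower calls (34 and 131 at 2-fold or more), a fit added after the data were seen. After median-of-ratios scaling the calls were 136 higher and 184 lower for number 1, and 286 higher and 196 lower for number 4. They were 191 higher and 61 lower for number 2, and 110 higher and 413 lower for number 3. Under this scaling lower calls thus outnumbered higher calls for numbers 1 and 3 only.

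**Figure D5:**
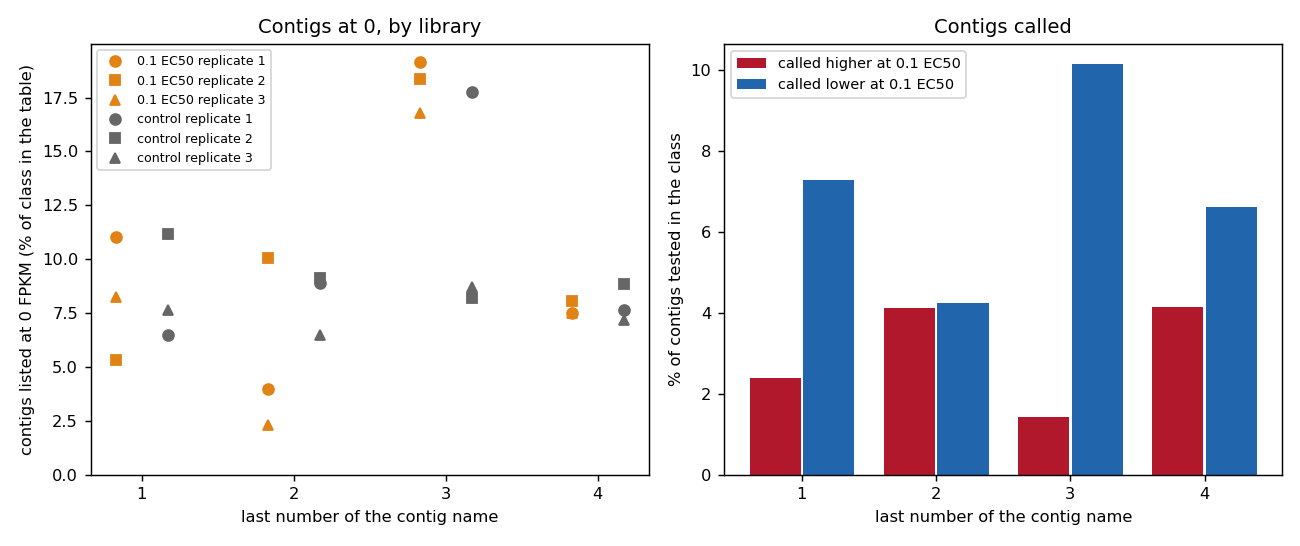
Left, share of the contigs in the table that were listed at 0 FPKM in each of the 6 libraries, by final number in the name (0.1 EC50 orange, control grey, symbols for replicates). Right, share of tested contigs called higher (red) and lower (blue) at 0.1 EC50, where number 3 has 1.44% higher and 10.1% lower and number 2 has 4.11% and 4.25%.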

How the data were processed

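The authors deposited FPKM values for 29140 contigs in 12 libraries (total RNA, Illumina TruSeq RNA libraries, per the labels), with Trinity-style contig names. That these are FPKM is taken from the deposited file's title. Labels and table do not name the assembler version, aligner, abundance estimator or filters. Values are estimates, not counts, and depth is unknown, so no counting interval is given. Every column was mapped to a sample by its title.

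Contigs averaging 1 FPKM or more across the 6 libraries of 0.1 EC50 and control were put on the log2(FPKM + 1) scale, and limma 3.58.1 (R 4.3.3) tested them. All 12 libraries entered 1 fit with a trend in the prior variance and 8 residual degrees of freedom. Tests were two-sided, and calls had a Benjamini-Hochberg adjusted p under 0.05 over all 16341 contigs. Named contigs were called in the same direction in the deposited values, under median-of-ratios scaling and under quantile normalization, did not overlap between groups and averaged 20 FPKM or more in the group with the higher level. Of 228 higher and 129 lower contigs that qualified, the 2 largest differences each way are named, with 1 contig per Trinity cluster. A planned test on Trinity genes joined contigs whose names differ only in the isoform number, with the last number of the name kept. It was dropped because each gene so defined has 1 contig, so it repeats the contig test. Without the last number the 29140 contigs have 22000 distinct names, and contigs that differ only in that number counted as separate. Members, lists and the libraries set apart by their low values were chosen with earlier results of these data known. Alternatives covered the pseudocount, filters, scalings, prior trend, weights, samples, replicate block, low-value steps, a minimum change and each library left out. Fits by name class and without contigs seen mainly in 1 library were added after seeing the data. Figures used matplotlib 3.10.9 in Python 3.11.15.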

Additional observations from a re-analysis of the deposited data

How the results depend on the processing

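The 4 named contigs had 84 results from alternative fits, 21 for each contig. They kept their direction in all 84 and lost the call in 3, which are given beside their values. The naming rule required the call under median-of-ratios scaling and quantile normalization, so those results could not fail. Several other alternatives changed the test or the contigs tested but not the log2 difference, so direction could not change there. The alternatives reuse the same 12 libraries, so they are not separate checks. Leaving out 1 library gave 846 to 1432 contigs called (238 to 382 higher, 608 to 1074 lower), 43 to 78 higher and 251 to 394 lower by 2-fold or more, against 1691, 470, 1221, 63 and 339 with all libraries, and a median log2 difference of -0.13 to -0.05. Median-of-ratios scaling gave 723 higher (123 by 2-fold) and a median of 0.028, and quantile normalization gave 107 at least 2-fold higher and a median of 0.015. A minimum of 5 FPKM gave 771 lower, 24 higher and 155 lower by 2-fold or more, with fewer contigs tested, and a pseudocount of 0.1 FPKM gave 540 at least 2-fold lower. The fit of 6 libraries, with 4 residual degrees of freedom, gave 767 (197 higher and 570 lower, 41 at least 2-fold higher). Leaving out the 4 libraries set apart by their low values gave 179 (73 higher and 106 lower, 34 and 94 by 2-fold), and the same split as a batch term gave 635 (200 and 435). Names ending in 1 or 4 gave 899 (292 and 607, 34 and 131 by 2-fold) and names ending in 2 or 3 gave 797 (179 and 618, 31 and 211 by 2-fold), with fewer contigs tested. A test against a 1.5-fold minimum change gave 87 (3 higher and 84 lower). Without contigs seen mainly in 1 library the count was 1710. Except where a smaller set or a stricter test is named, the cause was not tested.

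The replicate block gave 2196 contigs (620 higher and 1576 lower). Deviations from the group means correlated by 0.24, 0.035 and -0.085 between 0.1 EC50 and control libraries of the same number. Replicates 2 and 3 at 0.1 EC50 correlated best with another number, and replicate 1 with its own. The labels do not say what the number stands for, and whether libraries of the same number share more was not tested. Counts by level, by name class and of contigs at 0 moved by over 1.5 times in 149 of 392 cases. Depth is unknown, and the level near 1 FPKM limits what can be seen. Alternatives for the test on Trinity genes were not run, since each gene, with the last number of the name kept, has 1 contig and the results are those of the contigs.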
